A study of Mus musculus with 30 samples.

Results

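The 10 genes described here belong to the unfolded protein response of the endoplasmic reticulum (ER): Hspa5, Hsp90b1, Hyou1, Pdia4, Dnajb9, Sdf2l1, Creld2, Manf, Herpud1 and Xbp1. They were found by symbol, through the GENCODE M21 annotation, among the 29861 genes of the deposited abundance table, and all 10 passed the filter on low values that left 13644 genes for testing. RNA was sequenced from CCG-HTA-1, a primary fibroblast line from the tails of UMHet3 mice, a genetically mixed stock, at passage 4. Donor mice were 5 to 8 weeks old per the labels, except for Dihydrorotenone replicate 1, whose label gives 8 to 11 weeks. Cells received 1 of 8 compounds or the solvent DMSO and were collected 48 hours later, with 3 libraries per compound and 6 for DMSO. The compounds were Antimycin A, which inhibits complex III of the respiratory chain, Dihydrorotenone, a rotenone relative that inhibits complex I, Diphenyleneiodonium Cl, which inhibits flavoenzymes, Clofilium tosylate, which blocks potassium channels, Cardamonin, a chalcone from plants, Podofilox, which binds tubulin, and 2 named here as in the labels, BerberineA and AEG 3482. All cultures shared a medium high in glucose and lacking pyruvate, under ambient oxygen. No genotype or further agent differs between the groups in the labels, and doses are not given in the sources used here. All libraries come from 1 line, so p-values measure only the spread between these samples.

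The unfolded protein response adjusts the folding capacity of the ER to its load of secretory protein. Sensors in the ER membrane, IRE1, PERK and ATF6, are held inactive by the chaperone BiP, the product of Hspa5, and are released when unfolded protein accumulates. IRE1 splices Xbp1 mRNA so that it encodes an active transcription factor, ATF6 is cut in the Golgi and moves to the nucleus, and PERK slows translation and raises ATF4 and CHOP. XBP1 and ATF6 act on ER stress response elements in the promoters of chaperone genes. Fibroblasts secrete collagen and other matrix proteins and so carry a steady load of this kind. Gene-level values add the spliced and unspliced forms of Xbp1, so splicing was not measured.

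To show the elements through which this response is known to work, the 250 bases before the RefSeq transcription start are given for 5 of the genes (build GRCm38.p6, 5′ to 3′ on the gene's strand). Capitals mark an ER stress response element (ERSE: CCAAT, 9 bases, CCACG, on either strand) or, in Herpud1, an ERSE-II (ATTGG, 1 base, CCACG). Xbp1 is shown because its levels departed from those of the chaperones and neither element was found before its start. Neither was found in exact form in Pdia4, Dnajb9 or Sdf2l1, while Herpud1, whose levels also departed, held an ERSE-II. A link between these elements and the levels was not tested. GENCODE M21 places the outermost start of Hspa5 and of Hsp90b1 upstream of the RefSeq start, inside the stretch shown.
Hspa5, chr2:34771840-34772089, plus strand: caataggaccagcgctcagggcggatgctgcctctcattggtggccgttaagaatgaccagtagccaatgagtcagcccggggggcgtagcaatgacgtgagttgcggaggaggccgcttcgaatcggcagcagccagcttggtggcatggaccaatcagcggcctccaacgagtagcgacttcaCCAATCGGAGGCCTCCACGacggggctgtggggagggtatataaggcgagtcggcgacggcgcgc
Hsp90b1, chr10:86705445-86705694, minus strand: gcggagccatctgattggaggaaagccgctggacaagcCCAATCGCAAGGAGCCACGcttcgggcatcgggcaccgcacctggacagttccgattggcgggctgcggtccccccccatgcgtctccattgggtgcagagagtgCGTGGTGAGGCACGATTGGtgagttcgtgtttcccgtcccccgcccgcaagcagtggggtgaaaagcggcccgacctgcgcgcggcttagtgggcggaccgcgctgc
Creld2, chr15:88819396-88819645, plus strand: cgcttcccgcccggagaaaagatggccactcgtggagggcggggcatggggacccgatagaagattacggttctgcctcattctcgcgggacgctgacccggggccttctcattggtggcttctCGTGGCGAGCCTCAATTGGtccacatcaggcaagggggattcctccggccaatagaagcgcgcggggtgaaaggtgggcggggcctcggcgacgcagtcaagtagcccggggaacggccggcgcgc
Herpud1, chr8:94386179-94386428, plus strand: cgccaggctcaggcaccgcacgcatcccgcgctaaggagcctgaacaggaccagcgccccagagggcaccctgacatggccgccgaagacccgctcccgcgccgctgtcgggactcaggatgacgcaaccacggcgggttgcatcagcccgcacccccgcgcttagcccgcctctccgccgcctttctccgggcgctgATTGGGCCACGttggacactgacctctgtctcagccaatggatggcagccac
Xbp1, chr11:5520391-5520640, plus strand: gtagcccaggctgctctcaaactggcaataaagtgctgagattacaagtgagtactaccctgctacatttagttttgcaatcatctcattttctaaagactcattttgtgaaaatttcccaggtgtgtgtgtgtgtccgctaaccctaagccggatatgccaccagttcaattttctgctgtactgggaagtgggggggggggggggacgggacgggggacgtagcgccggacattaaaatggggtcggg

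The RefSeq table of windows reaching from 250 bases before to 50 after the start held 8 of the 10 genes. Manf and Hyou1 were the other two. An exact ERSE occurred in 3 of these 8 genes against 39 of all 32851 windows (0.119%). Counted from the start, it lay at -65 to -47 in Hspa5 and, reversed, at -126 to -108 in Creld2, and Hsp90b1 held 2, at -212 to -194 and, reversed, at -107 to -89. With up to 1 mismatch in CCAAT and 1 in CCACG, 5 of the 8 genes held an ERSE, Pdia4 and Herpud1 being added, against 10.7% of all windows. The ERSE-II of Herpud1, at -52 to -42, was 1 of 12 in the table (0.0365% of windows). The UPR element TGACGTG was found in Hspa5 alone among the 8 genes and in 2.01% of windows. The shorter site CCACG, which is part of both ERSE forms, was in 7 of the 8 genes, Xbp1 being the exception, and in 32.8% of windows. These matches describe letters in a window and were not tested.

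Levels are given in TPM, a transcript abundance scale that divides by transcript length, so levels of different genes can be set side by side. In DMSO the 10 genes together held 2056 ± 43.2 TPM (SD, n = 6), or 0.216% to 0.228% of the TPM listed in a library. Hspa5 (682 ± 23.5 TPM) and Hsp90b1 (580.1 ± 21.8 TPM) were the most abundant, and Sdf2l1 (36.9 ± 1.89 TPM) and Creld2 (47.0 ± 3.70 TPM) the least. The summed level was 3289 ± 77.5 TPM in Podofilox and 3103 ± 150.4 TPM in Cardamonin (SD, n = 3 each). In AEG 3482 it was 2057 ± 91.9 TPM, next to the DMSO value, although single genes moved in both directions there. The other compounds lay below every DMSO library, from 1537 ± 28.7 TPM in BerberineA and 1604 ± 39.6 in Clofilium tosylate to 1679 ± 18.6 in Dihydrorotenone, 1685 ± 25.1 in Antimycin A and 1693 ± 27.0 in Diphenyleneiodonium Cl. In bulk RNA, fewer cells of a kind and less RNA per cell cannot be told apart.

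**Figure D1:**
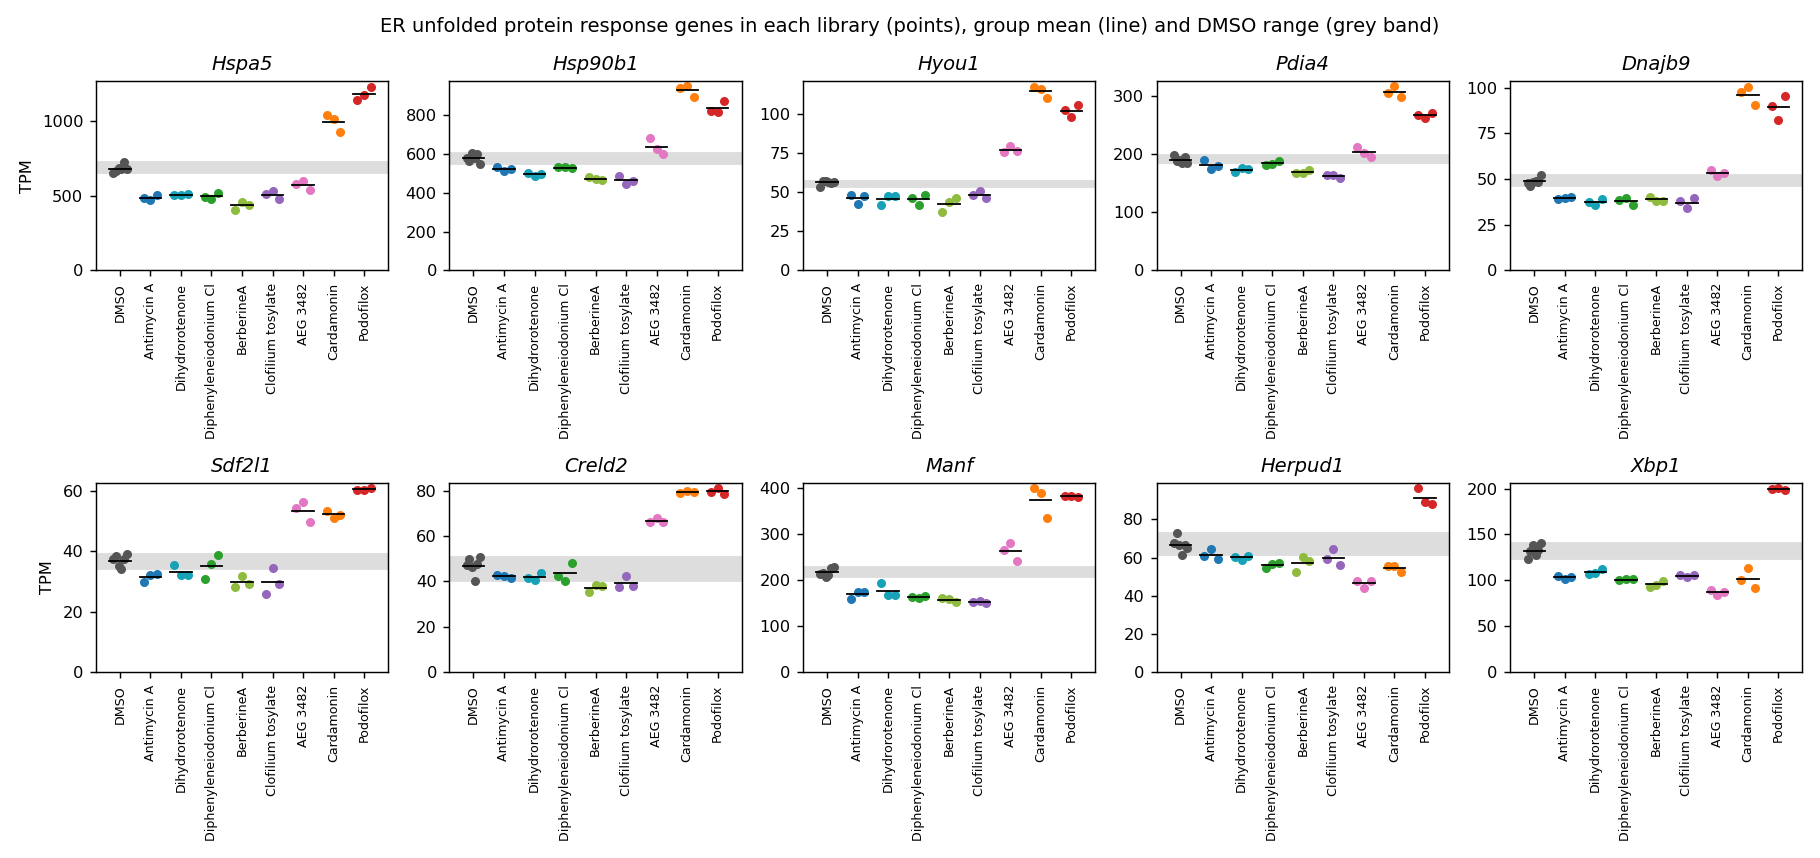
TPM (linear axis from 0) of each of the 10 genes in each of the 30 libraries (points), with the group mean (line) and the range of the 6 DMSO libraries (grey band). Podofilox lies above the band in all 10 genes and Cardamonin in 8, while Herpud1 and Xbp1 in Cardamonin and AEG 3482 lie below it.

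Each gene was compared with DMSO in each compound by limma on log2(TPM + 1), with p-values adjusted over all 13644 genes, and a change is called here at an adjusted p below 0.05. All 10 genes rose in Podofilox, where 46.2% of the genes tested were called and 26.2% were called higher. Cardamonin gave 8 genes higher and 2 lower, in a comparison in which 70.3% of genes were called, 37.3% higher and 33.0% lower. AEG 3482 gave 7 higher and 3 lower, with 68.1% of genes called, 41.3% higher and 26.8% lower. Under each of 3 other scalings of the libraries (median-ratio scaling, quantile normalization, and totals that leave out the 20 most abundant genes) the split in AEG 3482 was 4 higher and 3 lower, and median-ratio scaling moved the median of all genes there from 0.10 to 0.003. In Cardamonin and AEG 3482 most genes tested were called, so the directions and sizes of the 10 genes say more there than their number. The summed level of 8 fibroblast markers was 2405 to 3460 TPM in Cardamonin libraries, against 7223 to 8393 in DMSO, 6854 to 7164 in Podofilox, 7371 to 8443 in AEG 3482 and 4170 to 6723 in the other compounds, and its part in these results was not tested.

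All 10 genes fell in BerberineA, where 21.7% of genes were called and 9.16% were called lower, and all 10 fell in Clofilium tosylate, where 23.4% were called and 12.5% lower. In Antimycin A 8 of the 10 fell, with 37.3% of genes called and 15.5% lower. In Diphenyleneiodonium Cl 7 fell, with 25.7% called and 11.7% lower. The count in Dihydrorotenone was also 7, with 14.4% called and 9.43% lower. In these 5 compounds, called the lowering compounds from here on, every estimate for the 10 genes was below 0. Over the 80 tests against DMSO, 25 genes were called higher, 47 lower and 8 were not called.

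The separation of libraries gave a similar picture. In Podofilox all 10 genes had every treated library above the DMSO range (21.7% of all genes tested), and in Cardamonin 8 did (32.9%), with 2 below it (28.7%). In AEG 3482, 4 lay above (36.1%) and 3 below (22.8%), and 3 overlapped the DMSO range. The number below the range was 10 in BerberineA (8.56% of all genes), 8 in Dihydrorotenone (9.87%) and 7 each in Antimycin A (13.0%), Diphenyleneiodonium Cl (11.3%) and Clofilium tosylate (11.2%). The median log2 fold change of the 10 genes was 0.73 in Podofilox and 0.68 in Cardamonin, beside 0.04 and 0.03 over all genes tested. In AEG 3482 it was 0.13 beside 0.10. In the 5 lowering compounds it was between -0.25 and -0.32, beside values between -0.03 and 0.03 over all genes.

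**Figure D2:**
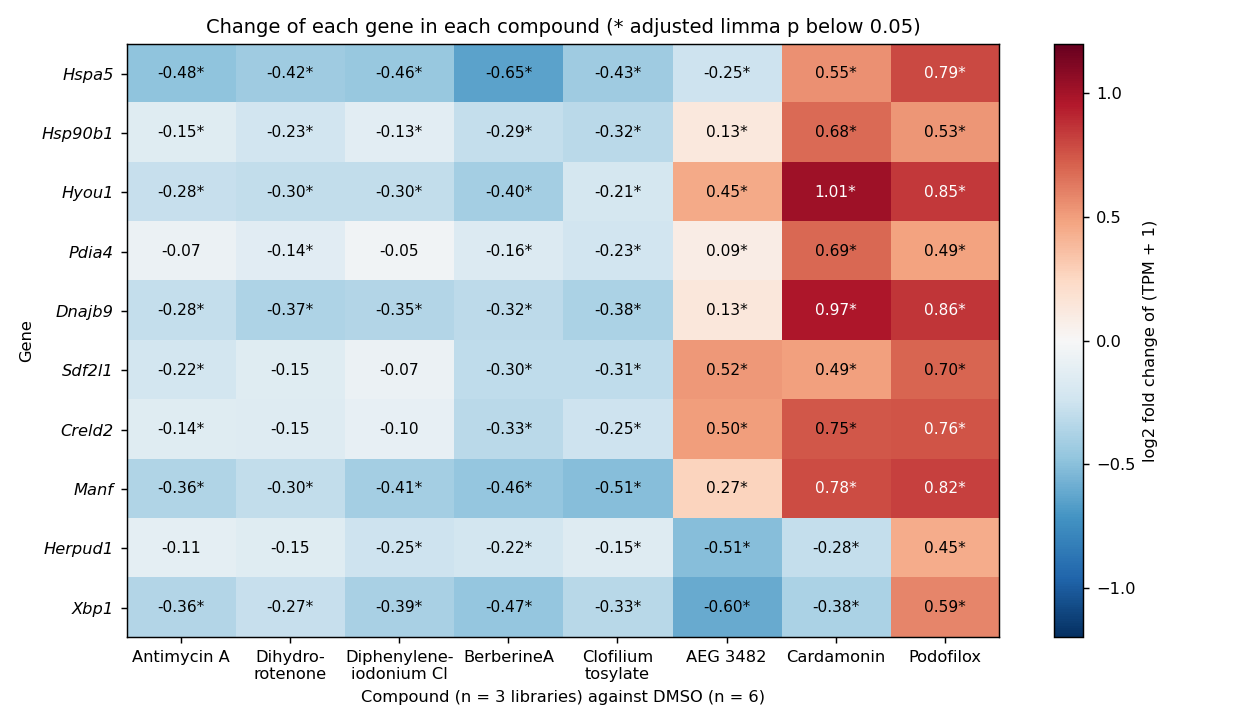
Log2 fold change of (TPM + 1) against DMSO for each gene (rows) in each compound (columns, n = 3 against n = 6), from red for higher to blue for lower, with an asterisk where the limma adjusted p is below 0.05. Podofilox is higher throughout, 5 compounds have estimates below 0 throughout, and Xbp1 and Herpud1 are lower in Cardamonin and AEG 3482. In AEG 3482 the small rises of Pdia4 and Dnajb9 are lost or turn under the 3 other scalings. The rise of Hsp90b1 there is lost under median-ratio scaling and scaling without the 20 most abundant genes. That of Manf is lost under quantile normalization.

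In the gene positions that follow, from GENCODE M21 on GRCm38, each span covers the whole protein-coding gene. Among the chaperones, Hspa5 (ENSMUSG00000026864, chr2:34771970-34777547, plus strand) encodes BiP, the ER member of the HSP70 family and the regulator of the sensors. Its DMSO libraries ran from 655 to 724 TPM with a median of 678. Podofilox libraries held 1142, 1174 and 1228 TPM and Cardamonin libraries 1043, 1017 and 929, all well above DMSO, and the 2 compounds did not overlap. AEG 3482, with 578, 601 and 538 TPM, lay below every DMSO library, and BerberineA was lowest, with 408, 459 and 439.8 TPM. The log2 fold changes were 0.79 (SE 0.046, limma, adjusted p = 3.37e-13) in Podofilox, 0.55 in Cardamonin (adjusted p = 6.29e-11), -0.25 in AEG 3482 (adjusted p = 2.69e-05) and -0.65 in BerberineA (adjusted p = 4.97e-10). Hspa5 was the only one of the 8 folding genes (chaperones, folding enzymes and secreted factors) that was called lower in AEG 3482. The other lowering compounds left it at 471.7 to 532 TPM, with log2 changes of -0.42 to -0.48.

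Hsp90b1 (ENSMUSG00000020048, chr10:86690209-86705509, minus strand) encodes GRP94, the HSP90 of the ER. DMSO libraries held 547 to 607 TPM (median 581), Cardamonin 941, 952 and 893, and Podofilox 823, 815 and 873, so the order of these 2 compounds was the reverse of that for Hspa5. Log2 fold changes were 0.68 in Cardamonin and 0.53 in Podofilox (SE 0.039, limma, adjusted p = 2.99e-14 and 3.05e-11). AEG 3482 libraries, at 682, 628 and 598 TPM, overlapped the DMSO range, and the log2 change of 0.13 (adjusted p = 0.00436) was 0.02 under median-ratio scaling and 0.06 when the 20 most abundant genes were left out of the scaling, and no longer called under either. Without AEG 3482 replicate 1 it was 0.08 and not called. In the 5 lowering compounds Hsp90b1 changed by -0.13 to -0.32. In Diphenyleneiodonium Cl, where it changed least, the call was lost without replicate 3 (-0.12). Of its 31-base words, 12.3% also occur in transcripts of other genes and 10.3% of its exon bases lie opposite another gene, 1810014B01Rik, so part of its reads could be shared.

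Hyou1 (ENSMUSG00000032115, chr9:44379490-44392369, plus strand) encodes GRP170, a large HSP70 relative that exchanges nucleotide on BiP. It had the largest single rise of the set, from 53.2 to 57.3 TPM (median 56.5) in DMSO to 117, 116 and 110.1 TPM in Cardamonin (log2 fold change 1.01, SE 0.058, limma, adjusted p = 3.71e-14). Podofilox libraries held 102, 97.8 and 105 TPM (log2 fold change 0.85) and AEG 3482 libraries 75.4, 79.3 and 76.1 (0.45), so the 3 groups stepped down without overlap and all stood clear of DMSO. The lowering compounds gave -0.21 in Clofilium tosylate to -0.40 in BerberineA, whose libraries held 37.1, 43.6 and 46.1 TPM. Without Clofilium tosylate replicate 3, the change there was -0.18 and not called.

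Among the folding enzymes and cochaperones, Pdia4 (ENSMUSG00000025823, chr6:47796141-47813430, minus strand) encodes ERp72, a protein disulfide isomerase, and had the smallest standard error of the set. DMSO libraries held 184 to 198 TPM (median 189), Cardamonin 304, 317 and 297, and Podofilox 266, 261 and 269.7, with log2 fold changes of 0.69 and 0.49 (SE 0.033, limma, adjusted p = 8.89e-16 and 7.13e-12). In AEG 3482 (211, 202 and 194 TPM) it overlapped DMSO; the log2 change of 0.09 (adjusted p = 0.0148) turned to -0.01 under median-ratio scaling and -0.05 under quantile normalization, and was not called under the remaining scaling (0.02), in a fit on the 2 groups alone (0.09) or without AEG 3482 replicate 1 (0.06). It was not called in Antimycin A (-0.07, 95% interval -0.13 to 0.002) or Diphenyleneiodonium Cl (-0.05, interval -0.11 to 0.02), although 3 other scalings did call it in Antimycin A (-0.09 to -0.12), as did the fit without Antimycin A replicate 1 (-0.10). The fall in Dihydrorotenone (-0.14) was not called under median-ratio scaling (-0.10) or in the fit on 2 groups.

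Dnajb9 (ENSMUSG00000014905, chr12:44205559-44210326, minus strand) encodes ERdj4, a J-domain partner that delivers BiP to IRE1 and to misfolded proteins. It was highest in Cardamonin, at 97.7, 100.3 and 90.3 TPM against 46.0 to 52.2 TPM (median 48.5) in DMSO (log2 fold change 0.97, SE 0.051, limma, adjusted p = 6.07e-15). Podofilox followed with 90.1, 82.5 and 95.5 TPM (0.86), overlapping Cardamonin. In AEG 3482 (55.0, 51.7 and 53.5 TPM) the log2 change of 0.13 (adjusted p = 0.0247) turned to -0.05 under quantile normalization, and was lost under the other 2 scalings (0.03 and 0.06) and without AEG 3482 replicate 1 (0.11), replicate 3 (0.13) or DMSO replicate 2 (0.12). All 15 libraries of the lowering compounds lay below DMSO, with log2 changes of -0.28 to -0.38. Of its 31-base words, 10.8% also occur in Gm6568.

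Sdf2l1 (ENSMUSG00000022769, chr16:17130138-17132383, minus strand) encodes a small ER protein that keeps BiP substrates from aggregating. It was the gene on which AEG 3482 and Cardamonin were closest: 54.4, 56.4 and 49.6 TPM and 53.3, 51.2 and 52.1 TPM, against 34.1 to 38.9 (median 37.5) in DMSO, with log2 fold changes of 0.52 and 0.49 (SE 0.070, limma, adjusted p = 3.66e-07 and 8.56e-07). Podofilox libraries stood above both at 60.4, 60.3 and 60.9 TPM (0.70), but its direct contrast with AEG 3482 was not called (0.18, limma, adjusted p = 0.0614). It was lower in BerberineA (-0.30), Clofilium tosylate (-0.31) and Antimycin A (-0.22, not called without Antimycin A replicate 1, at -0.18). In Dihydrorotenone (-0.15) and Diphenyleneiodonium Cl (-0.07, 95% interval -0.22 to 0.07) it was not called.

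Creld2 (ENSMUSG00000023272, chr15:88819646-88826683, plus strand) and Manf (ENSMUSG00000032575, chr9:106838312-106891979, minus strand) encode small luminal proteins, a disulfide isomerase-like factor and a secreted neurotrophic factor that binds BiP. Creld2 held 40.2 to 50.6 TPM (median 47.5) in DMSO, and 78.9, 80.0 and 79.5 TPM in Cardamonin, 79.6, 81.2 and 78.8 in Podofilox and 66.2, 67.9 and 66.0 in AEG 3482. The log2 fold changes were 0.75, 0.76 and 0.50 (SE 0.057, limma, adjusted p = 1.02e-11, 5.43e-11 and 2.53e-08), and each of these 9 libraries lay above every DMSO library. The low end of the DMSO range was set by replicate 4 alone. Creld2 fell in BerberineA (-0.33) and Clofilium tosylate (-0.25). Its fall of 0.14 in Antimycin A sat at the threshold (limma, adjusted p = 0.0494) and was not called in fits with a smaller pseudocount, without the filter, without the intensity trend or on the 2 groups alone, nor without any 1 of the Antimycin A libraries or of DMSO replicates 1, 2, 3, 5 and 6. In Dihydrorotenone (-0.15) and Diphenyleneiodonium Cl (-0.10) it was not called. Without DMSO replicate 4 it was, at -0.20 and -0.15, and in Diphenyleneiodonium Cl also without that group's replicate 3 (-0.17).

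Manf held 206 to 228 TPM (median 215) in DMSO, 399, 389 and 334 in Cardamonin and 383, 383 and 381 in Podofilox, with log2 fold changes of 0.78 and 0.82 (SE 0.053, limma, adjusted p = 1.14e-12 and 3.44e-12). AEG 3482 libraries, at 264, 281 and 241 TPM, lay above the DMSO range by less (0.27, adjusted p = 7.58e-05; 0.10 and not called under quantile normalization). The deepest fall was in Clofilium tosylate, at 151, 154 and 150.4 TPM (-0.51, adjusted p = 1.25e-07). For Manf, the 5 lowering compounds had every library below DMSO. Manf overlaps 4930524O07Rik and Dcaf1 on the opposite strand over 8.85% of its exon bases.

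Xbp1 (ENSMUSG00000020484, chr11:5520659-5525893, plus strand), the transcription factor, and Herpud1 (ENSMUSG00000031770, chr8:94386438-94395377, plus strand), an ER membrane protein that organises the degradation of misfolded proteins, followed another order. Xbp1 held 123 to 141 TPM (median 132) in DMSO. It rose in Podofilox alone, with each library between 199 and 201 TPM, a log2 change of 0.59 (SE 0.047, limma, adjusted p = 1.23e-10). It fell in the other 7 compounds, in every library below the DMSO range. The lowest level was in AEG 3482 at 89.5, 83.9 and 87.3 TPM (-0.60, adjusted p = 2.13e-11), and Cardamonin libraries held 101, 113 and 91.2 TPM (-0.38, adjusted p = 5.77e-08), in the same range as the 5 lowering compounds (-0.27 to -0.47).

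Herpud1 likewise rose in Podofilox alone, from 61.2 to 72.8 TPM (median 66.6) in DMSO to 96.5, 89.3 and 87.8 TPM, a log2 change of 0.45 (SE 0.052, limma, adjusted p = 9.78e-08). AEG 3482 libraries, at 47.8, 44.0 and 47.6 TPM, were the lowest (-0.51, adjusted p = 3.25e-09), and Cardamonin libraries, at 55.7, 55.8 and 52.3 TPM, lay below DMSO too (-0.28, adjusted p = 3.12e-05). Falls in Diphenyleneiodonium Cl (-0.25) and BerberineA (-0.22) were called. The fall in Clofilium tosylate (-0.15, adjusted p = 0.0355) was lost under median-ratio scaling (-0.14), in the fit on 2 groups, and without Clofilium tosylate replicate 1 or 3 or DMSO replicate 1, 2 or 5 (-0.10 to -0.15). In Antimycin A (-0.11) and Dihydrorotenone (-0.15) it was not called. It was called in both when the 20 most abundant genes were left out of the scaling, and without DMSO replicate 4 (-0.14 to -0.17), and in Antimycin A under the other scalings too (-0.14 in each).

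A ratio of genes within a library stays the same when the library is divided by another total, though quantile normalization can change it. The ratio of Xbp1 to Hsp90b1 TPM was 0.212 to 0.257 in DMSO and 0.228 to 0.246 in Podofilox, but 0.102 to 0.119 in Cardamonin and 0.131 to 0.146 in AEG 3482. For Herpud1 to Hsp90b1 it was 0.106 to 0.129 in DMSO, 0.101 to 0.117 in Podofilox, 0.0586 to 0.0593 in Cardamonin and 0.0701 to 0.0796 in AEG 3482. Podofilox therefore overlapped DMSO in both ratios, and Cardamonin and AEG 3482 lay below it in both. Xbp1 to Hsp90b1 was also below every DMSO library in Antimycin A (0.196 to 0.198) and Diphenyleneiodonium Cl (0.188 to 0.193), and the other 3 lowering compounds overlapped DMSO, as all 5 did for Herpud1. The ratio of Hspa5 to Hsp90b1 was 1.12 to 1.24 in DMSO, 1.39 to 1.44 in Podofilox, 1.04 to 1.11 in Cardamonin and 0.847 to 0.957 in AEG 3482. Of the lowering compounds, Antimycin A, Dihydrorotenone, Diphenyleneiodonium Cl and BerberineA lay below DMSO in this ratio (0.842 to 1.04), and Clofilium tosylate overlapped it (1.04 to 1.19). These ratios were chosen after the values were seen and carry no test.

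Across the 9 groups the order of levels was not the same for every gene. Hsp90b1, Hyou1, Pdia4 and Dnajb9 were highest in Cardamonin, and the other 6 in Podofilox. For 7 genes the groups above DMSO were Podofilox, Cardamonin and AEG 3482. For Hspa5 they were Podofilox and Cardamonin, and for Xbp1 and Herpud1 only Podofilox. Of the 8 steps between neighbouring groups in that order, between 1 (Sdf2l1) and 4 (Hspa5, Hsp90b1, Hyou1) passed the adjusted limma threshold. For Hspa5 these were Podofilox over Cardamonin, Cardamonin over DMSO, DMSO over AEG 3482, and AEG 3482 over Dihydrorotenone. No step between neighbours that were both among the 5 lowering compounds did.

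Direct contrasts asked whether compounds differed from each other, and 174 of the 280 tests (10 genes in 28 pairs of compounds) were called, against 38.7% of the same tests over all genes. Among the 5 lowering compounds, 7 of 100 tests were called, near the 5.00% over all genes. Over the remaining 18 pairs it was 167 of 180, against 57.5%. The 5 compounds were grouped by the direction of these same 10 genes, so this split is not independent of the grouping. Hsp90b1 differed in the most pairs (21 of 28) and Xbp1 in the fewest (13 of 28).

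Cardamonin and AEG 3482 differed in 9 of the 10 genes, all higher in Cardamonin, where 55.3% of all genes differed and 22.6% were higher. The differences in log2(TPM + 1) were 0.83 for Dnajb9 (95% interval 0.71 to 0.96), 0.80 for Hspa5 (0.69 to 0.91), 0.59 for Pdia4, 0.56 for Hyou1, 0.55 for Hsp90b1 and 0.51 for Manf. They were smaller for Creld2 (0.25), Herpud1 (0.23) and Xbp1 (0.22, not called in a fit on the 2 groups alone, adjusted p = 0.0565). For Sdf2l1 the difference was -0.03 with an interval of -0.20 to 0.13 (limma, adjusted p = 0.761).

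Podofilox and Cardamonin differed in 7 genes, in both directions, in a contrast where 57.8% of all genes differed (29.1% higher in Podofilox, 28.7% lower). Xbp1 was higher in Podofilox by 0.97 (interval 0.86 to 1.08, limma, adjusted p = 4.38e-14) and Herpud1 by 0.73 (0.61 to 0.85, adjusted p = 9.83e-11), the largest differences of this pair. Hspa5 was higher by 0.25 (adjusted p = 0.000268) and Sdf2l1 by 0.21 (adjusted p = 0.0291). Pdia4 (-0.20, adjusted p = 6.43e-05), Hyou1 (-0.16) and Hsp90b1 (-0.15) were lower in Podofilox. No difference was called for Dnajb9 (-0.10, interval -0.23 to 0.02), Creld2 (0.01, -0.13 to 0.14) or Manf (0.04, -0.09 to 0.16). The calls for Sdf2l1, Hyou1 and Hsp90b1 were not stable: Hsp90b1 was lost with the 20 most abundant genes left out of the scaling (-0.10), and Hyou1 likewise, and also without the filter, under quantile normalization, and without Cardamonin replicate 1 or 2 or Podofilox replicate 1 or 2 (-0.10 to -0.17). Sdf2l1 was lost under median-ratio scaling and without any Podofilox library or Cardamonin replicate 2 or 3 (0.20 to 0.21), and Dnajb9 was called without Podofilox replicate 3 (-0.15).

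**Figure D3:**
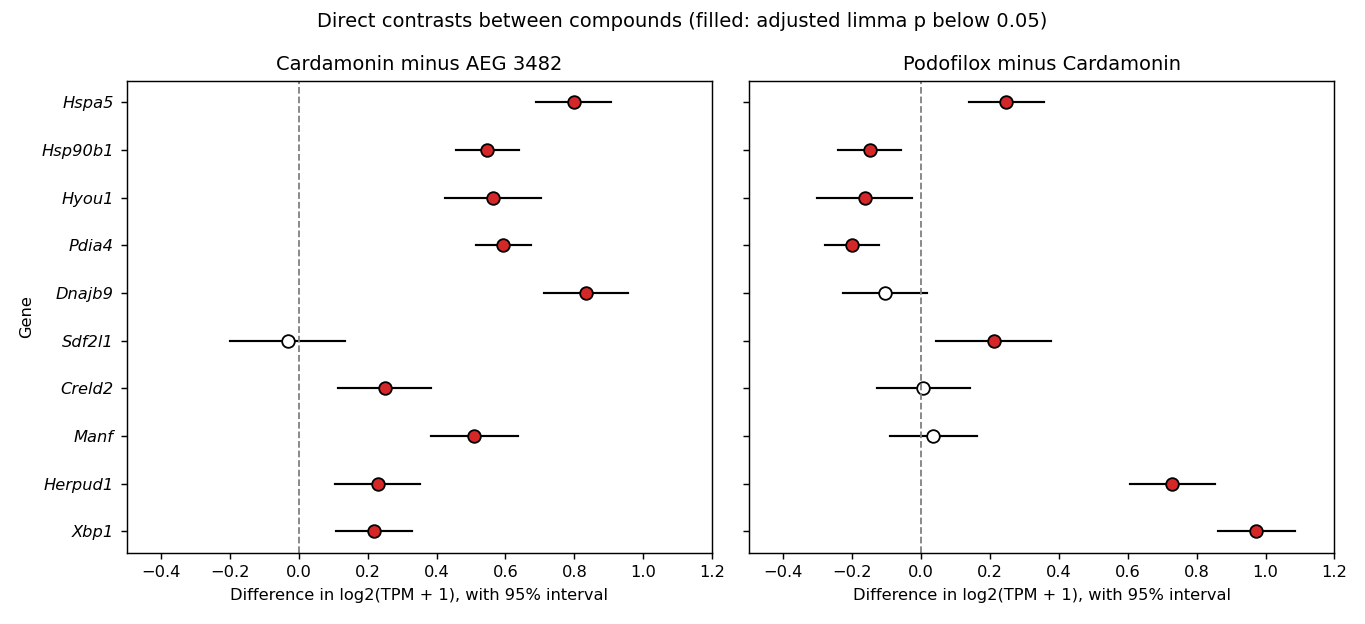
Difference in log2(TPM + 1) between compounds for each gene, with its 95% interval (line) and a filled point where the limma adjusted p is below 0.05. Cardamonin is above AEG 3482 in all genes but Sdf2l1, and Xbp1 (0.97) and Herpud1 (0.73) stand apart in Podofilox minus Cardamonin.

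Among the lowering compounds, Antimycin A was above Clofilium tosylate in Hsp90b1 (0.18, limma, adjusted p = 0.0201) and Pdia4 (0.16, adjusted p = 0.0123), where 5.21% of all genes differed and 3.85% were higher. This count of 2 was 0 or 1 under other scalings, in the fit on 2 groups and without Antimycin A replicate 1 or 3 or Clofilium tosylate replicate 2 or 3. Hspa5 was lower in BerberineA than in Dihydrorotenone, by 0.22, and than in Clofilium tosylate, by 0.22. Antimycin A and Dihydrorotenone, which act on different complexes of the respiratory chain, differed in 15.5% of all genes and in 0 of the 10 by limma, 0 also at an unadjusted p below 0.05. Their largest difference was 0.09 (Dnajb9, 95% interval -0.03 to 0.21). In 4 other pairs limma called 0 of the 10 genes: 1 of the 10 was at an unadjusted p below 0.05 between Antimycin A and Diphenyleneiodonium Cl (6.04% of all genes called), 3 between Dihydrorotenone and Diphenyleneiodonium Cl (3.68%), 3 between Dihydrorotenone and Clofilium tosylate (2.46%), and 5 between Diphenyleneiodonium Cl and BerberineA (0.623%).

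The 10 genes varied together to different degrees. Over the 9 group means of log2(TPM + 1), which share the authors' scaling, Pearson's r between 2 of the genes ranged from 0.206 to 0.992 over 45 pairs, with a median of 0.916. Averaged over its pairs with the other 9, r was 0.374 for Herpud1 and 0.520 for Xbp1, and 0.779 to 0.850 for each of the rest. Among 10862 other genes, those most like the mean pattern of the 10 over these 9 points were Fam98a (r = 0.991), Serp1 (0.990), Slc41a2 (0.985), Tfg (0.985), Cgref1 (0.983), Ssr3 (0.983), Sec61a1 (0.977) and Tram1 (0.977). Serp1 held 60.3 TPM in DMSO, 113 in Podofilox, 97.6 in Cardamonin and 41.9 in BerberineA. Those most like Hspa5 were Ssr3 (0.992), Serp1 (0.986), Dad1 (0.985), Slc41a2 (0.979) and Sec61b (0.978). All these r values rest on 9 points and carry no test, and r between other pairs of genes is not given.

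Other genes of the pathway were taken from 6 lists, chosen with earlier results of these data known. Counts are of genes past the same limma threshold against DMSO. They stand beside 46.2% of all genes called in Podofilox (26.2% higher), 70.3% in Cardamonin (37.3% higher) and 68.1% in AEG 3482 (41.3% higher). In the lowering compounds 14.4% to 37.3% of all genes were called, and 9.16% to 15.5% were called lower. Of the genes called in these compounds, 34.4% (Dihydrorotenone) to 58.6% (Antimycin A) were higher. Of 11 sensors and their processing factors, 5 rose and 1 fell in Podofilox (5 and 2 under 2 other scalings). The median log2 fold change of this list was 0.16 in Podofilox, -0.13 in Cardamonin and 0.10 in AEG 3482, beside 0.04, 0.03 and 0.10 over all genes tested. In Podofilox Atf6 rose from 14.1 ± 0.926 to 25.8 ± 1.25 TPM (log2 fold change 0.83, limma, adjusted p = 5.66e-13). Eif2ak3, which encodes PERK, and Ern1, which encodes IRE1, each rose by 0.45 in Podofilox. Eif2ak3 fell in each of the 5 lowering compounds (-0.24 to -0.45). The other sensor genes did not fall with it: Ern1 and Atf6 rose in Antimycin A (0.24 and 0.27) and Clofilium tosylate (0.29 and 0.15). In Dihydrorotenone, Diphenyleneiodonium Cl and BerberineA neither was called. Cardamonin split this list, 5 higher and 5 lower: Atf6b, the ATF6 relative, rose by 0.75 and Ern1 by 0.66, while Creb3l1, an ATF6-like factor of collagen-secreting cells, fell from 54.6 to 17.9 TPM (-1.56, adjusted p = 4.94e-14). In AEG 3482 it was 5 higher and 2 lower (4 and 3 under each other scaling), with Atf6b at 0.55 and Creb3l1 at -0.74; 7 of 11 called is no larger a share than that of all genes there.

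Of 26 other ER chaperones and folding enzymes, 16 rose and 3 fell in Podofilox, 15 and 6 in Cardamonin, and 14 and 5 in AEG 3482 (11 and 7 under median-ratio scaling), with list medians of 0.22, 0.19 and 0.14. In the lowering compounds 12 to 15 fell and 1 to 5 rose, with medians of -0.11 to -0.19. The split in Diphenyleneiodonium Cl, 5 higher and 12 lower, was 3 and 13 with the 20 most abundant genes left out of the scaling. Canx, the lectin chaperone calnexin, rose from 266 to 568 TPM in Cardamonin (log2 fold change 1.09, limma, adjusted p = 1.74e-18). Calr, its soluble counterpart calreticulin, fell from 1086 to 781 TPM in BerberineA (-0.47). Dnajc3, which encodes the PERK inhibitor P58IPK, fell by 0.36 to 0.55 in the 5 lowering compounds. Fkbp14, a prolyl isomerase that acts on collagen, went against the chaperones in Cardamonin (62.5 to 24.5 TPM, -1.32) and AEG 3482 (-0.83), and fell in the 5 lowering compounds too (-0.59 to -1.08).

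Of 23 genes of ER entry and export, 19 rose and 1 fell in Podofilox, and 16 rose and 2 fell in Cardamonin. In AEG 3482 it was 8 and 7, and under the 3 other scalings 4 and 9, 5 and 11, and 6 and 8; 15 of 23 called is no larger a share than that of all genes there. The list medians were 0.31, 0.23 and 0.05. In each lowering compound 13 to 16 fell, with medians of -0.16 to -0.25. For Dihydrorotenone the count of 14 was 8 or 9 under median-ratio scaling and quantile normalization, and 8 in the fit on 2 groups or without Dihydrorotenone replicate 3. For BerberineA 14 fell, and 9 were called without BerberineA replicate 2. Sec61a1, the channel subunit, rose by 0.59 in Podofilox, Spcs3 of the signal peptidase by 0.77 and the coat protein Sec24d by 0.55. Ssr1 of the translocon fell by 0.33 to 0.51 and Sec24d by 0.37 to 0.60 in the lowering compounds.

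Of 22 genes of ER-associated degradation, 18 rose in AEG 3482, 16 in Podofilox and 15 in Cardamonin, and 3, 2 and 3 fell, with list medians of 0.45, 0.26 and 0.49. Herpud1, which belongs to this process, thus fell in AEG 3482 and Cardamonin while most of this list rose. Derl3 rose from 1.83 to 8.51 TPM in Cardamonin (log2 fold change 1.77), and the cytosolic extraction factors Vcp (0.96) and Nploc4 (1.01) rose with it. Syvn1, the ligase HRD1, rose by 0.52 in Podofilox, and Ube2g2 by 1.02 in AEG 3482. Selenos fell by 0.45 in Antimycin A and 0.46 in Diphenyleneiodonium Cl. In the 5 lowering compounds 4 to 7 of the list fell and 1 to 4 rose. The split of 4 higher and 5 lower in Antimycin A was 2 and 5 under 2 other scalings, and that of 1 and 4 in Dihydrorotenone was 1 and 2 under median-ratio scaling and 0 and 5 with the 20 most abundant genes left out.

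Of 12 genes of the PERK, ATF4 and CHOP arm, 10 rose in Antimycin A and 8 in Clofilium tosylate and the others were not called, with list medians of 0.76 and 0.48 beside 0.03 and -0.00015 over all genes. In Podofilox 9 rose, and in Cardamonin and AEG 3482 8 rose and 2 fell. Trib3, a target of CHOP, held 4.42 TPM in DMSO, 72.8 in Cardamonin, 40.7 in Clofilium tosylate and 29.4 in Antimycin A (log2 fold changes 3.78, 2.95 and 2.50). Ddit3, which encodes CHOP, was highest in Cardamonin, at 230 TPM (log2 fold change 1.43). It rose by 1.28 in Antimycin A, to 206 TPM, by 1.10 in Clofilium tosylate, to 181 TPM, and by 0.78 in Podofilox, to 145 TPM. Eif2ak3, which encodes PERK, changed by -0.45 in Antimycin A and -0.38 in Clofilium tosylate. Whether the rises on this list came through PERK was not tested. In BerberineA 5 rose. In Diphenyleneiodonium Cl 4 rose and 1 fell (4 and 2 with the 20 most abundant genes left out of the scaling), and in Dihydrorotenone 1 rose and 2 fell (1 and 0 under 2 other scalings).

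Of 16 cytosolic chaperones, many of which answer to heat shock factor, 15 rose in Cardamonin and 15 in AEG 3482, with list medians of 1.10 and 0.90. In Podofilox 9 rose, with a median of 0.18. Whether these counts differ between compounds was not tested. Hspa1b, an inducible cytosolic HSP70, went from 22.2 ± 4.25 TPM to 196 ± 30.2 in AEG 3482 and 116 ± 7.07 in Cardamonin (log2 fold changes 3.10 and 2.35). In Podofilox it held 20.9 ± 2.19 TPM (-0.07, not called). It fell in all 5 lowering compounds (-0.61 to -1.05). The list did not move as one there: Dnajb4 also fell in each, and Hsp90aa1 was called in none. Hspb1 rose in Antimycin A (0.59), BerberineA (0.38), Clofilium tosylate (0.29) and Diphenyleneiodonium Cl (0.26), and was not called in Dihydrorotenone (0.08). Hspa1b and Hspa1a are near-identical copies, so reads can be shared between them.

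**Figure D4:**
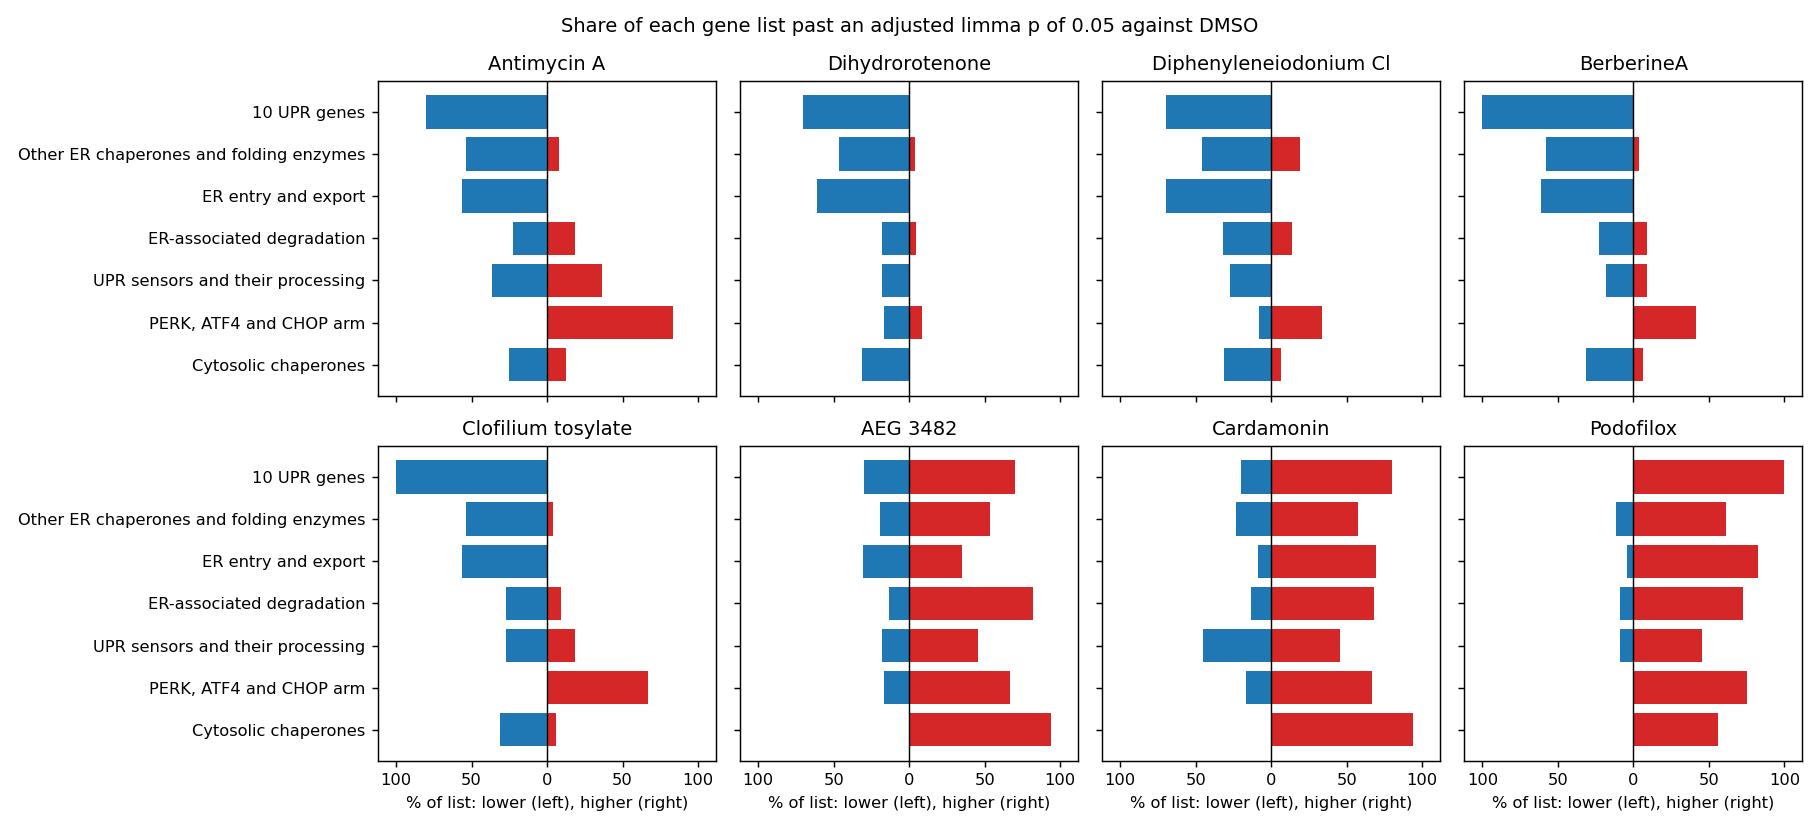
Percentage of each gene list called higher (red, right) or lower (blue, left) than DMSO by limma, for the 10 genes and the 6 other lists in each compound. The ER lists lean left in the 5 lowering compounds, except the sensors in Antimycin A (4 higher, 4 lower), and right in Podofilox. In the lowering compounds the lean of the sensors and of ER-associated degradation rests on few genes and was not tested. The PERK, ATF4 and CHOP arm leans right in every compound but Dihydrorotenone. In AEG 3482 the split of the 10 genes, the sensors and ER entry and export moves left under the 3 other scalings.

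Genes at 1 TPM or more numbered 12229 to 12700 per library, and sequencing depth is unknown, since TPM does not keep it. The fibroblast markers Col1a1, Col1a2, Col3a1, Pdgfra, Pdgfrb, Thy1, Dcn and Lum were present in every library, the lowest value being 37.2 TPM for Pdgfrb. Of 8 macrophage markers, Ptprc was below 1 TPM in every library, and their sum, mostly Lyz2, Cd14 and Cd68, was 192 to 255 TPM in DMSO and 103 to 219 in the compounds. Endothelial, keratinocyte and skeletal muscle lists summed to at most 8.94, 2.94 and 1.52 TPM, with Krt5 and Myod1 at 0 in every library, and the Schwann cell list to 5.04 to 13.5 TPM, with Sox10 below 1 TPM throughout. Library numbers run consecutively within groups, so a batch that followed these numbers, if there was one, could not be told apart from group.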

How the data were processed

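Total RNA from 30 libraries was depleted of ribosomal RNA and sequenced, per the labels' protocols. The authors deposited TPM values, a length-scaled transcript abundance, per gene, made with kallisto 0.43.1 and tximport, per the submitters' processing notes and the series' text, which also name FastQC and the mm10 build. The transcript index and strand setting are not given in the sources used here. Of 29861 genes, 29505 (98.8%) matched GENCODE M21. TPM keeps no sequencing depth, so no counting interval was made.

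Groups came from the labels, all 6 DMSO libraries included (the series' text speaks of 5). limma 3.58.1 in R 4.3.3 was fitted to log2(TPM + 1) for genes at 1 TPM or more in at least 3 libraries (13644 genes), with 1 mean per group, a shared spread and an intensity trend. p-values were adjusted by the Benjamini-Hochberg method over all genes within a comparison, with a threshold of 0.05. Intervals are at 95%. The fit was tested on simulated data. A fold change on the log2(TPM + 1) scale understates that of low genes.

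Alternatives were a pseudocount of 0.1 TPM, no filter, a mean of at least 5 TPM, median-ratio scaling, quantile normalization, scaling without the 20 most abundant genes, protein-coding genes only, no intensity trend, only the compared groups, a replicate block, and each library left out. The 10 genes and all lists were chosen with earlier results of these data known. List genes open to naming were, per compound, the up to 3 largest rises and falls past the threshold, at 5 TPM or more in the higher group and with every treated library outside the DMSO range. Values of such a gene in other compounds, and the Ern1, Eif2ak3, Dnajc3, Ssr1 and Sec24d ranges, were added for completeness. Promoter windows came from the RefSeq table of GRCm38.p6.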

Additional observations from a re-analysis of the deposited data

How the results depend on the processing

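Across the alternatives, the count of the 10 genes called against DMSO stayed within 1.5 times of the reported one in all 8 compounds, in the contrasts of Cardamonin with AEG 3482 and of Podofilox with Cardamonin, and over the 28 pairs. The exception was Antimycin A against Clofilium tosylate, where the count of 2 was 1 under median-ratio scaling and 0 under quantile normalization, under scaling without the 20 most abundant genes and with only the 2 groups compared. The cause was not tested. With each library left out in turn, counts ran from 7 to 9 in Antimycin A, 7 to 9 in Dihydrorotenone, 7 to 8 in Diphenyleneiodonium Cl, 8 to 10 in Clofilium tosylate and 7 to 10 in AEG 3482, and were 10 throughout in BerberineA, Cardamonin and Podofilox. They ran from 9 to 9 in Cardamonin against AEG 3482, 5 to 7 in Podofilox against Cardamonin, 0 to 2 in Antimycin A against Clofilium tosylate (0 without Antimycin A replicate 1 or Clofilium tosylate replicate 3), 0 to 0 in Antimycin A against Dihydrorotenone and 169 to 175 over the 28 pairs.

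Among genes called against DMSO, the sign turned only in AEG 3482: Pdia4 at -0.013 under median-ratio scaling and -0.0498 under quantile normalization, and Dnajb9 at -0.0482 under quantile normalization. Differences that were not called also changed sign. In Antimycin A against Dihydrorotenone, values under median-ratio scaling, quantile normalization and, where it turned, scaling without the 20 most abundant genes were -0.0307 and -0.0354 for Herpud1, -0.0536, -0.0691 and -0.0159 for Creld2, and -0.0456, -0.0582 and -0.00784 for Hyou1. With 1 library left out, values ran from -0.0024 to 0.059 for Herpud1, -0.0128 to 0.0396 for Creld2, -0.0456 to 0.0741 for Hyou1 and -0.0948 to 0.00786 for Manf. In Cardamonin against AEG 3482, Sdf2l1 was 0.0478, 0.0401 and 0.0056 under the 3 scalings and -0.085 to 0.0064 with 1 library left out. In Podofilox against Cardamonin, Creld2 was -0.000762 under median-ratio scaling and -0.00567 to 0.0162 with 1 library left out, and Manf -0.0434 to 0.0837. In Antimycin A against Clofilium tosylate, Herpud1 was -0.00364 under quantile normalization and -0.0104 to 0.0922 with 1 library left out, and Sdf2l1 -0.00958 to 0.192. In Diphenyleneiodonium Cl against DMSO, Sdf2l1 was -0.142 to 0.0158 with 1 library left out.

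The replicate numbers did not pair the libraries: over 24 same-numbered pairs with DMSO the correlation of deviations ran from -0.0545 to 0.120 with a median of 0.0184, and 7 of 24 libraries were closest to their own number. With the replicate block, 9 genes were called in Antimycin A, 9 in Dihydrorotenone, 7 in Diphenyleneiodonium Cl, 10 in Cardamonin, 10 in BerberineA, 10 in Clofilium tosylate, 9 in AEG 3482 and 10 in Podofilox, 9 in Cardamonin against AEG 3482, 6 in Podofilox against Cardamonin, 2 in Antimycin A against Clofilium tosylate, 0 in Antimycin A against Dihydrorotenone and 174 over the 28 pairs. With the block, Herpud1 was also called in Antimycin A (-0.16) and Dihydrorotenone (-0.20) and Creld2 in Dihydrorotenone (-0.18), while Pdia4 in AEG 3482 (0.08) and Hyou1 in Podofilox against Cardamonin (-0.16) were not called. Sequencing depth is unknown, so how far it limits the lowest genes cannot be stated.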
